A study of Homo sapiens with 12 samples.

Results

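Interferon-stimulated genes were examined in THP-1 and U-937 cells, described by the authors as acute myeloid leukemia lines, after exposure to honokiol or its solvent. The 43 genes were chosen by name as type I interferon response genes with their transcription factors, and all 43 were found among the 36866 genes of the deposited table. Poly(A) RNA of 4 groups was sequenced, namely THP-1 with DMSO, THP-1 with honokiol, U-937 with DMSO and U-937 with honokiol, with 3 libraries in each group. The cells were kept for 24 h with honokiol or with 0.1% DMSO, and the labels list 20 µM and 35 µM honokiol without saying which line received which. Both lines carry a complex karyotype by their labels, and each stands for 1 cell line only. Nothing in the labels says that the libraries of a group came from separate cultures, so p-values measure the spread between these libraries, which may be technical.

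Type I interferons are secreted proteins that bind the receptor pair IFNAR1 and IFNAR2, whose kinases JAK1 and TYK2 then phosphorylate transcription factors that include STAT2. STAT2 and IRF9 belong to the complex that binds the interferon-stimulated response element in the promoters of its target genes, and interferon gamma is known to act through the gamma-activated site. The products degrade viral RNA, block translation, stop membrane fusion or carry the signal on, and monocytic cells such as these lines are known to express many of them at a low level without infection.

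The libraries summed to between 57406966 and 75065752 estimated counts, or about 14351742 to 18766438 fragments if a fragment was worth 4 counts. Among counts of 1 to 8 the value 4 was the most frequent (17264 values). Values of 1 (10103) and 2 (9533) were also frequent, so the fragment numbers are approximate. Replicate 1 of each DMSO group stood apart by its mitochondrial share, which was 13.7% in THP-1 cells, 12.6% in U-937 cells and between 5.61% and 7.55% in the 10 other libraries, and results without these libraries are given below. All 10 myeloid markers were in the table, with a summed FPKM (fragments scaled to transcript length and library size) of 493 to 901 over the 12 libraries. Of the 10, 8 had a mean FPKM over 1 in U-937 cells with DMSO, and the granule enzyme MPO was at most 0.17 in U-937 against 20.24 to 35.29 in THP-1. The summed FPKM of 3 T cell markers was at most 0.25.

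Promoter sequences were taken from RefSeq (GRCh38.p14) to show the elements through which these genes are known to be induced. Of the 43 genes, 34 had an entry. The letters GAAANNGAA, the core of the interferon-stimulated response element, were searched on both strands in windows of 300 bases around each start, and overlapping matches were each counted. They were present for 25 of the 34 genes (73.5%), against 9.86% of the 27305 genes with an entry. A pair of matches or more was found for 15 of the 34. The letters TTCNNNGAA of the gamma-activated site, read on both strands and able to overlap the other motif, were present for 11 of the 34 genes (32.4%), against 9.38% of all genes. These matches describe the letters only and say nothing of binding in these cells. The 170 bases before the start are printed below for genes whose values are described later, from 5′ to 3′ on the strand of the gene, with GAAANNGAA or its reverse complement in capitals, and for IRF1, which had no such match, with TTCNNNGAA in capitals.
ISG15, chr1:1013327-1013496 (plus strand): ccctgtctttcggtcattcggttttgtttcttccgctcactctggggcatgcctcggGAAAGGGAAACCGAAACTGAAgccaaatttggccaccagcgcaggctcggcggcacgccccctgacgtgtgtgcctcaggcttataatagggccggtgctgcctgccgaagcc
IFI6, chr1:27672193-27672362 (minus strand): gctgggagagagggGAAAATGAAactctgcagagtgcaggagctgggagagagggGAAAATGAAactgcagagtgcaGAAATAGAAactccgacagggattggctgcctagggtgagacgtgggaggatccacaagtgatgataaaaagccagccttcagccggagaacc
OAS3, chr12:112938304-112938473 (plus strand): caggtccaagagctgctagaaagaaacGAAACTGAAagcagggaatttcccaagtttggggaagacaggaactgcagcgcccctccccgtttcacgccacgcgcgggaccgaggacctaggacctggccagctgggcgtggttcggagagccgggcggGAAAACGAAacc
IFIT3, chr10:89327827-89327996 (plus strand): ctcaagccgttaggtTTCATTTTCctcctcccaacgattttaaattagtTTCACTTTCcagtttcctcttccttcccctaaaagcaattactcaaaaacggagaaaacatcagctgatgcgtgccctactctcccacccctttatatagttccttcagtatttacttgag
DDX60, chr4:168318753-168318922 (minus strand): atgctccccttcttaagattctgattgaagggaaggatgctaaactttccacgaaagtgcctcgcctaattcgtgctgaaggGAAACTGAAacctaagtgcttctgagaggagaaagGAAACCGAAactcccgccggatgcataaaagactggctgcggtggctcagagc
PARP14, chr3:122680669-122680838 (plus strand): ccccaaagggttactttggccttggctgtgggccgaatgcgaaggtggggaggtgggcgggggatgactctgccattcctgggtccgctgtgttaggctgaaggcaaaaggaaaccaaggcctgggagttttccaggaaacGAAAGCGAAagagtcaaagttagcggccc
IFITM3, chr11:320861-321030 (minus strand): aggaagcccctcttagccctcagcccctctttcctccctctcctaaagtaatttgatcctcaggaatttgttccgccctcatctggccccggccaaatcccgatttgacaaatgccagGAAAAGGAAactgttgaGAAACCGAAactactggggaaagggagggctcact
EPSTI1, chr13:42992242-42992411 (minus strand): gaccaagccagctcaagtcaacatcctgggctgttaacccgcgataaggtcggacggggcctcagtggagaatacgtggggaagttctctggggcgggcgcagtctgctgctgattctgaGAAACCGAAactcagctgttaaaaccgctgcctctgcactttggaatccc
IRF1, chr5:132490774-132490943 (minus strand): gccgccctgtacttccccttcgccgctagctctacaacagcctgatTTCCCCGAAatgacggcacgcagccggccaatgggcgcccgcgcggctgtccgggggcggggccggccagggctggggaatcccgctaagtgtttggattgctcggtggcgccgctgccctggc
ISG15, IFI6 and IFITM3 thus hold their matches within 156 bases of the start, and the matches of OAS3 begin 143 and 12 bases before it. IFIT3 has another start, not printed, with matches beginning 99, 93 and 50 bases before it. PARP14, which had the smallest p-value of the genes in U-937 cells, holds 1 match, beginning 29 bases before its start. OAS1, which had the largest log2 fold change there, holds no match to these letters in its window. It does hold GAAACGAAA shortly before its start, with a closer spacing that the search could not count. A gene without a match may thus still hold a related element.

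Without honokiol, the levels of these genes ranged widely. In THP-1 cells with DMSO, BST2, which tethers budding virus to the cell surface, was highest (mean FPKM 85.6 ± 24.4, SD, n = 3), followed by IFI6, a protein of mitochondria and the endoplasmic reticulum (39.9 ± 27.6), and IFITM3, which blocks fusion of virus with endosomes (19.5 ± 2.82). In U-937 cells with DMSO, BST2 was again highest (137.5 ± 29.4, SD, n = 3), followed by IFITM2 (33.5 ± 4.54) and IFI6 (25.5 ± 12.05). In that order, BST2 did not overlap IFITM2 in U-937 cells (103.55 to 155.37 against 29.55 to 38.44), whereas IFITM2 and IFI6 (12.81 to 36.77) overlapped. The median over the 43 genes with DMSO was an FPKM of 3.08 for THP-1 and 1.17 for U-937, and 4 genes of THP-1 but 15 of U-937 had a mean FPKM under 0.5. RSAD2, ISG20, IFI27 and IFI44L, all known as strongly inducible genes, stayed under an FPKM of 0.5 in every library.

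**Figure D1:**
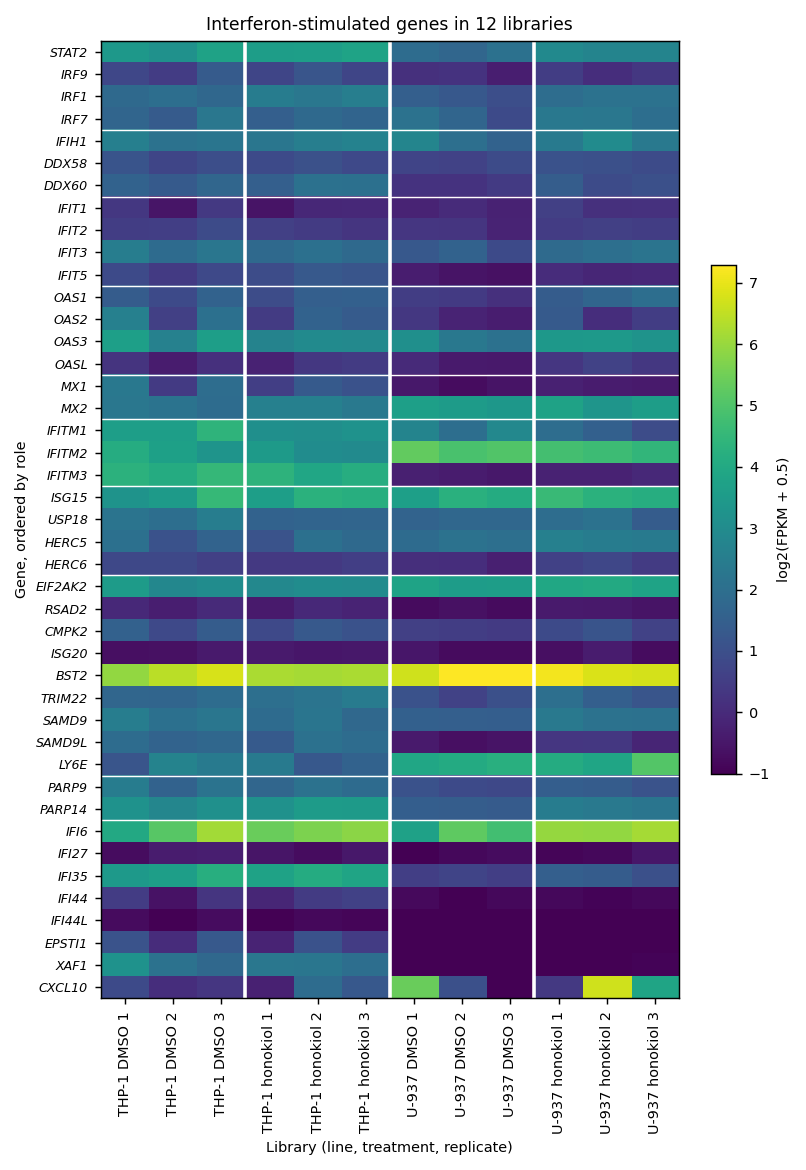
Heat map of log2(FPKM + 0.5) for the 43 interferon-stimulated genes (rows, ordered by role) in the 12 libraries (columns; white lines separate the groups). BST2 and IFI6 are bright in all groups, and XAF1, EPSTI1 and IFI44L are dark in U-937 cells, where their FPKM was at most 0.03.

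The baseline comparison of U-937 with THP-1 cells, both with DMSO, was made over 14617 genes. Of the 37 interferon-stimulated genes tested, 21 were lower and 4 were higher in U-937 at an adjusted p under 0.05 (quasi-likelihood test of edgeR, Benjamini-Hochberg adjusted), and the median log2 difference was -1.14. Over all genes 25.4% were lower and 22.0% were higher in U-937, with a median of -0.04. A gene was tested where its FPKM reached 0.5 in at least 3 libraries of the fit, and 6 of the 37 (IFIT5, IFITM3, MX1, SAMD9L, EPSTI1 and XAF1) passed only through THP-1 and so had to be lower in U-937. Without them, 15 of 31 were lower and 4 were higher, with a median of -0.85. The shares of all genes given above still include genes that passed through 1 line only, and shares without such genes were not counted. Without DMSO replicate 1 of both lines, 13 of the 29 then tested were lower and 5 were higher, where 20.1% and 19.7% of all genes were.

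XAF1, which opposes the apoptosis inhibitor XIAP, had an FPKM of 8.86, 3.84 and 3.01 in the DMSO libraries of THP-1 and a count of 0 in all 3 of U-937. It was at least 217-fold lower with an assumed floor of 12 counts per library, taken as 3 fragments. EPSTI1 had an FPKM of 1.68, 0.54 and 2.01 in THP-1 and likewise a count of 0 in the DMSO libraries of U-937, at least 43.5-fold lower. With honokiol these genes stayed at an FPKM of 0.03 or less in U-937 cells. Both genes were thus read in every THP-1 library and nearly absent from U-937 at this depth.

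Of the antiviral membrane proteins, IFITM3 had an FPKM of 19.63, 16.66 and 22.3 in THP-1 and 0.33, 0.27 and 0.22 in U-937 cells with DMSO. The log2 difference was -6.18 (SE 0.31), and IFITM3 passed the limit only through THP-1, so the filter fixed its direction. Its neighbor IFITM2 went the other way, with an FPKM of 16.82, 12.53 and 9.25 in THP-1 and 38.44, 29.55 and 32.42 in U-937 (1.32, SE 0.27, adjusted p = 0.00422). The IFITM genes are near-identical copies, IFITM1 and IFITM2 overlap on 1 strand of chromosome 11, and the counting could have split reads between them, so these values are uncertain. LY6E, a small surface protein, had an FPKM of 1.79, 6.05 and 4.68 in THP-1 and 14.31, 16.26 and 18.41 in U-937 (1.93, SE 0.37, adjusted p = 0.00282). The 2 lines did not overlap for any of these 3 genes.

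The MX GTPases trap viral nucleoproteins or capsids. MX1 had an FPKM of 4.51, 0.84 and 3.39 in THP-1 and 0.22, 0.11 and 0.17 in U-937 cells with DMSO. The log2 difference was -4.14 (SE 0.63), and MX1 too passed the limit only through THP-1. MX2 was higher in U-937 (12.33, 11.24 and 9.94) than in THP-1 (4.42, 3.93 and 3.28), by 1.47 (SE 0.20, adjusted p = 0.000466). So the 2 genes, adjacent on chromosome 21, stood in opposite order in the lines.

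SAMD9L, a restriction factor with growth-suppressing activity, had an FPKM of 3.32, 2.61 and 2.92 in THP-1 and 0.25, 0.13 and 0.18 in U-937 cells with DMSO (-4.04, SE 0.34). It passed the limit only through THP-1, which fixed its direction. IFI35 had 10.77, 11.91 and 17.94 in THP-1 and 0.96, 1.11 and 0.96 in U-937 (-3.75, SE 0.26, adjusted p = 1.48e-05). For the RNA-sensing synthetase OAS2 the values were 5.54, 0.98 and 3.66 in THP-1 and 0.78, 0.38 and 0.30 in U-937 (-2.85, SE 0.66, adjusted p = 0.0074). In each case every THP-1 library lay above every U-937 library, although OAS2 in THP-1 replicate 2 came close. IFIT5, which binds RNA with a 5′ phosphate, differed by -2.49 (SE 0.43), with an FPKM of 1.3, 0.84 and 1.26 in THP-1 and 0.29, 0.18 and 0.14 in U-937. Like SAMD9L, it passed the limit only through THP-1.

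The other genes past the threshold at baseline were lower in U-937, with log2 differences from -0.75 (IRF1) to -1.91 (PARP14), except BST2, which was higher (0.63). The call for BST2 held in 11 of 19 settings of the analysis, and its libraries overlapped (60.91 to 109.6 in THP-1 against 103.55 to 155.37 in U-937). The calls for IRF1 and IRF9 each held in 15 of 19. PARP14, a mono-ADP-ribosyltransferase, had an FPKM of 8.91, 6.52 and 8.49 in THP-1 and 2.28, 2.22 and 2.10 in U-937. The log2 difference was -1.74 for STAT2 (adjusted p = 0.00022) and -1.42 for IRF9 (adjusted p = 0.0279), so both of these members of the complex were lower there. The genes not past the threshold include ISG15, the ubiquitin-like modifier, at 9.01, 11.02 and 23.03 in THP-1 and 12.18, 18.54 and 16.74 in U-937 (0.10, SE 0.34), and IFIH1, a helicase sensor of long double-stranded RNA, at 5.52, 3.89 and 4.16 against 6.28, 3.58 and 2.57 (-0.17, SE 0.36).

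**Figure D2:**
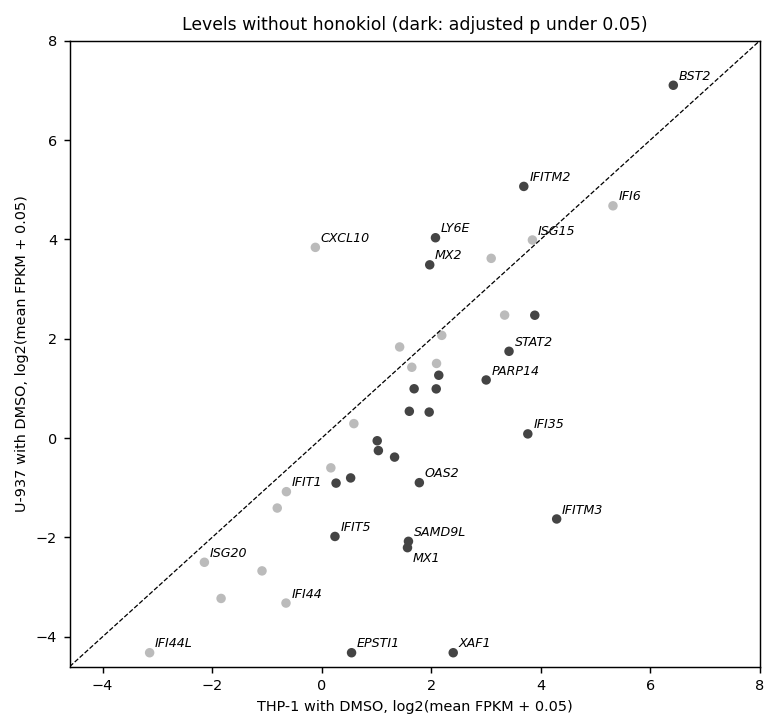
Mean level with DMSO in THP-1 (horizontal axis) and U-937 cells (vertical axis), both log2(mean FPKM + 0.05), for the 43 genes (n = 3 libraries each). The dashed line marks equal levels, and dark points had an adjusted p under 0.05, 21 below and 4 above the line. The 21 include 6 genes that passed the limit only through THP-1 and so had to lie below it.

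Each line was next compared with and without honokiol to ask whether the compound moved these genes. In U-937 cells most of them were higher with honokiol, but 0 of the 32 tested had an adjusted p under 0.05 in edgeR's quasi-likelihood test, where 0.0947% of all 13726 genes had one. At an unadjusted p under 0.05, 15 were higher (8.25% of all genes were) and 2 were lower (8.44% of all genes). The 3 honokiol libraries lay above the 3 DMSO libraries in FPKM for 20 of the 32 (62.5%, against 16.7% of all genes tested) and below them for 2 (6.25%, against 7.50%). The median log2 fold change was 0.61, with 28 of 32 above 0, against 0.02 for all genes. With DESeq2, 9 of these genes were higher and 1 was lower at an adjusted p under 0.05, where 2.70% and 3.05% of all genes were. With all 12 libraries in 1 fit OAS1, DDX60, STAT2 and PARP14 were higher (0.772% of all genes).

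Some choices in the processing move these counts. OASL passed the limit only through the honokiol libraries. Without it, 19 of 31 lay above, 14 were higher at an unadjusted p under 0.05 and the median was 0.53. The shares of all genes were not counted again without genes that passed through 1 treatment only. Other genes also needed honokiol libraries to pass. Of these, IFIT1 (FPKM 0.39, 0.52 and 0.36 with DMSO) and OAS2 (0.78, 0.38 and 0.30) reached the limit in only 1 DMSO library. They remain among the 31. On the scale of TMM-normalized CPM (counts scaled to library size), 15 lay above without overlap and 2 below, where 12.2% and 11.8% of all genes did. Without any normalization the median of all genes was 0.11, and that of the interferon-stimulated genes was 0.72. Without DMSO replicate 1, the library with the high mitochondrial share, 20 had an unadjusted p under 0.05 and were higher (7.57% of all genes), and with each library left out in turn this count ran from 10, without honokiol replicate 1 (6.42% of all genes), to 20. In bulk RNA, more RNA in each cell and more cells holding the RNA cannot be told apart.

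All 4 transcription factors of the list had a positive log2 fold change in U-937 cells. STAT2 had an FPKM of 3.32, 2.83 and 3.77 with DMSO and 7.15, 6.23 and 6.16 with honokiol (0.89, SE 0.16, adjusted p = 0.0776). IRF1, an activator that interferon gamma and inflammatory signals induce, had 2.37, 1.95 and 1.5 with DMSO and 3.43, 3.85 and 3.85 with honokiol (0.84, SE 0.21, adjusted p = 0.144). The groups did not overlap for either gene. IRF7, the factor that amplifies interferon production, had 3.82, 2.77 and 1.32 with DMSO and 4.5, 4.38 and 3.5 with honokiol, and IRF9 had 0.61, 0.65 and 0.31 with DMSO and 0.91, 0.55 and 0.78 with honokiol. Both overlapped between the groups (IRF7 0.53, SE 0.37; IRF9 0.40, SE 0.37).

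Among the helicases, DDX60, a cofactor of RNA sensing, had an FPKM of 0.66, 0.67 and 0.82 with DMSO and 2.20, 1.36 and 1.53 with honokiol in U-937 (1.16, SE 0.24, adjusted p = 0.0974), without overlap. The sensor DDX58 (RIG-I) and IFIH1 had log2 fold changes of 0.27 (SE 0.21) and 0.33 (SE 0.36). IFIH1 had 4.85, 7.49 and 4.57 with honokiol against the DMSO values given above, and its groups overlapped.

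The OAS enzymes make the messenger that activates RNase L. OAS1 had an FPKM of 0.91, 0.84 and 0.62 with DMSO and 2.16, 2.79 and 3.44 with honokiol in U-937, the largest log2 fold change of the 32 genes (1.72, SE 0.27, adjusted p = 0.0637). OAS3 had 8.30, 4.45 and 3.79 with DMSO and 10.25, 10.69 and 9.13 with honokiol (0.75, SE 0.30, adjusted p = 0.274). The catalytically inactive relative OASL had 0.48, 0.26 and 0.24 with DMSO and 0.75, 1.05 and 0.78 with honokiol (1.29, SE 0.38, adjusted p = 0.177). None of these 3 genes overlapped between the groups, whereas OAS2, at 0.78, 0.38 and 0.30 with DMSO and 2.03, 0.55 and 0.93 with honokiol, did (1.16, SE 0.56, adjusted p = 0.344).

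The IFIT proteins bind viral RNA that lacks the host's cap methylation. IFIT3 had an FPKM of 1.95, 2.54 and 1.32 with DMSO and 3.12, 3.57 and 4.09 with honokiol in U-937 (0.79, SE 0.28, adjusted p = 0.231). IFIT1 had 0.39, 0.52 and 0.36 with DMSO and 0.98, 0.62 and 0.63 with honokiol (0.73, SE 0.31, adjusted p = 0.289). Every honokiol library was above every DMSO library for both, and IFIT2 was likewise without overlap (0.51, SE 0.33). IFIT5, under the limit, had 0.54, 0.42 and 0.47 with honokiol.

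ISG15 and its enzymes attach a ubiquitin-like tag to newly made proteins. The ligase HERC5 had an FPKM of 3.21, 3.81 and 3.53 with DMSO and 5.65, 5.09 and 4.88 with honokiol in U-937 (0.48, SE 0.15, adjusted p = 0.189). Its relative HERC6 had 0.58, 0.55 and 0.32 with DMSO and 1.01, 1.18 and 0.85 with honokiol (0.97, SE 0.31, adjusted p = 0.198). Neither overlapped between the groups. ISG15 itself had 24.01, 19.02 and 17.53 with honokiol and overlapped DMSO (0.27, SE 0.20), as did USP18, the protease that removes the tag and restrains the receptor (2.59, 2.87 and 2.89 with DMSO, 3.38, 3.82 and 2.13 with honokiol; 0.07, SE 0.26).

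PARP14 had an FPKM of 2.28, 2.22 and 2.10 with DMSO and 5.02, 4.64 and 4.15 with honokiol in U-937, the smallest adjusted p of the list (0.97, SE 0.14, adjusted p = 0.0624). SAMD9, a restriction factor of poxviruses, had 2.43, 2.34 and 2.29 with DMSO and 4.57, 3.86 and 3.76 with honokiol (0.70, SE 0.16, adjusted p = 0.113). TRIM22 had 1.61, 1.06 and 1.54 with DMSO and 3.57, 2.35 and 1.76 with honokiol (0.77, SE 0.30, adjusted p = 0.262). All 3 were without overlap, with TRIM22 in honokiol replicate 3 close to the DMSO libraries. BST2 had 103.55, 153.49 and 155.37 with DMSO and 141.49, 112.57 and 108.06 with honokiol, which overlap (-0.27, SE 0.18).

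IFI6 had an FPKM of 12.81, 36.77 and 26.98 with DMSO and 62.80, 60.75 and 72.05 with honokiol in U-937 (1.28, SE 0.32, adjusted p = 0.140). IFI35 had 0.96, 1.11 and 0.96 with DMSO and 2.32, 2.13 and 1.54 with honokiol (0.87, SE 0.26, adjusted p = 0.181). Both were without overlap. Of the 11 genes under the FPKM limit in U-937, none was tested.

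The IFITM genes were the 2 exceptions among the 17 with an unadjusted p under 0.05. IFITM1 had an FPKM of 6.21, 3.45 and 6.85 with DMSO and 3.38, 2.43 and 1.41 with honokiol in U-937 (-1.28, SE 0.40, adjusted p = 0.191). IFITM2 had 38.44, 29.55 and 32.42 with DMSO and 27.34, 25.09 and 21.45 with honokiol (-0.54, SE 0.17, adjusted p = 0.197). Neither overlapped, although IFITM1 in DMSO replicate 2 and honokiol replicate 1 were nearly level. IFITM3, under the limit in U-937, had 0.37, 0.36 and 0.47 with honokiol. MX2 was level in the groups (13.10, 9.42 and 11.79 with honokiol; -0.06, SE 0.18), and MX1, under the limit, had 0.35, 0.27 and 0.25.

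**Figure D3:**
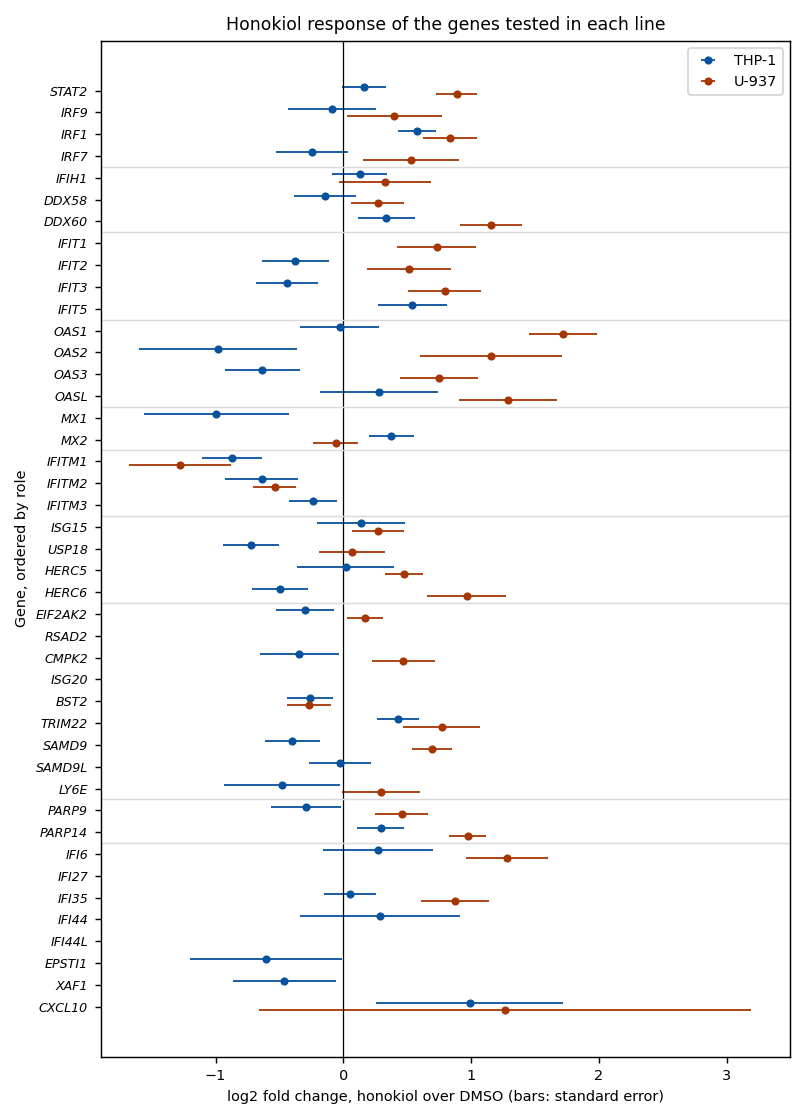
Log2 fold change of honokiol over DMSO (horizontal axis; bars are standard errors) for each gene tested in THP-1 (blue) and U-937 cells (brown), ordered by role. In U-937, 28 of 32 points lie above 0, with IFITM1, IFITM2, BST2 and MX2 below it, and in THP-1 15 of 38 lie above 0.

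In THP-1 cells the same comparison gave no common direction. Of the 38 genes tested, 0 had an adjusted p under 0.05 (0.0411% of 14600 genes did), 2 had an unadjusted p under 0.05 and were higher (6.84% of all genes), and 2 were lower (6.22%). With DESeq2, IRF1, USP18 and IFITM1 had an adjusted p under 0.05, as 3.46% of all genes did. The groups did not overlap for 4 genes that were higher (13.0% of all genes) and 3 that were lower (7.62%). The median log2 fold change was -0.19, with 15 above and 23 below 0, against -0.0011 for all genes. On TMM-normalized CPM, 2 genes lay above without overlap (10.8% of all genes) and 3 below (9.59%). The unadjusted counts moved when a library was left out. Without DMSO replicate 2, 8 of 38 genes were lower. Of all 14295 genes, 1557 then had an unadjusted p under 0.05 in either direction, and 5.55% of all genes were higher. Without DMSO replicate 1, 5 were higher, as were 7.13% of all genes.

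IRF1 was again higher, at an FPKM of 3.08, 3.51 and 2.93 with DMSO and 5.12, 4.32 and 5.32 with honokiol in THP-1 (0.58, SE 0.15, adjusted p = 0.216). TRIM22 had 2.85, 2.76 and 3.34 with DMSO and 3.60, 4.04 and 4.91 with honokiol (0.43, SE 0.17, adjusted p = 0.346). Both were also higher in U-937, and neither overlapped in either line. IFIT5 (1.39, 2.0 and 1.79 with honokiol) and MX2 (5.58, 5.58 and 4.63) were the other 2 genes above DMSO without overlap (0.54, SE 0.27; 0.38, SE 0.18).

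IFITM1 was lower in THP-1 as in U-937, at 11.95, 11.96 and 20.47 with DMSO and 8.25, 7.96 and 8.83 with honokiol (-0.87, SE 0.23, adjusted p = 0.227). USP18 had 4.03, 3.51 and 5.15 with DMSO and 2.51, 2.71 and 2.76 with honokiol (-0.72, SE 0.22, adjusted p = 0.270), and HERC6 had 1.24, 1.22 and 0.99 with DMSO and 0.81, 0.79 and 0.95 with honokiol (-0.50, SE 0.22, adjusted p = 0.387). These 3 genes lay below DMSO without overlap. IFITM2 had 10.98, 7.67 and 7.35 with honokiol and IFITM3 19.92, 14.30 and 17.39, and both overlapped DMSO (-0.64, SE 0.29; -0.24, SE 0.19).

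The genes that stood out in U-937 had smaller log2 fold changes in THP-1. They were picked by their values in U-937, and this choice by itself favors smaller values in the other line. STAT2 had an FPKM of 10.23, 8.63 and 13.13 with DMSO and 11.66, 12.11 and 13.43 with honokiol (0.16, SE 0.17). OAS1 had 2.13, 1.31 and 2.56 with DMSO and 1.40, 2.34 and 2.40 with honokiol (-0.03, SE 0.31), and PARP14 had 8.55, 11.23 and 10.82 with honokiol (0.29, SE 0.18). All 3 overlapped between the groups. Values were spread within DMSO for IFI6 (15.59, 34.21 and 69.84 with DMSO, 41.17, 49.24 and 56.51 with honokiol; 0.27, SE 0.43) and OAS3 (12.41, 5.74 and 12.10 with DMSO, 6.08, 7.31 and 7.03 with honokiol; -0.63, SE 0.29). DDX60 had 2.52, 2.02 and 2.86 with DMSO and 2.37, 3.74 and 3.63 with honokiol (0.34, SE 0.23). IFIT3 (3.04, 3.69 and 3.03 with honokiol, 5.14, 3.26 and 4.24 with DMSO) had -0.44 (SE 0.24), and the groups overlapped.

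**Figure D4:**
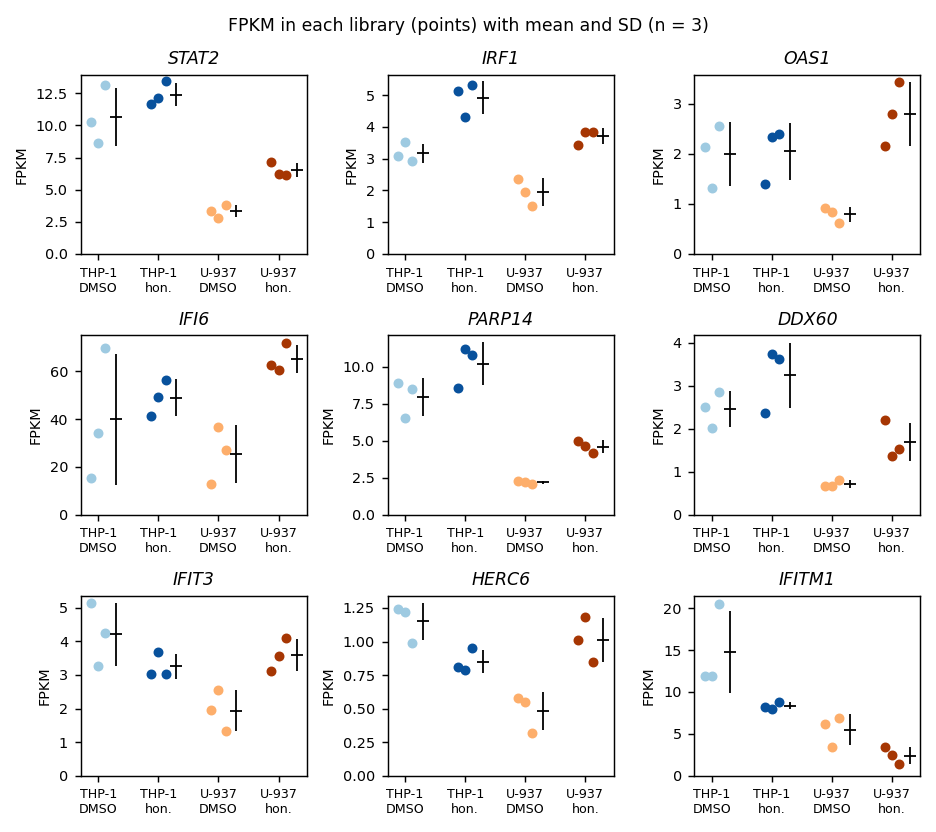
FPKM of 9 genes in each library (points, replicates 1 to 3 from left to right) with the mean and SD (black, n = 3) for THP-1 and U-937 cells with DMSO and with honokiol (hon.). STAT2, IRF1, OAS1, IFI6, PARP14, DDX60, IFIT3 and HERC6 are higher with honokiol in U-937 without overlap, whereas IFITM1 is lower in both lines.

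The difference of the honokiol response between the lines was tested as an interaction in 1 fit of 16283 genes. The labels do not say which line received which dose, so line and dose cannot be told apart in this difference. Of the 39 interferon-stimulated genes tested, 0 had an adjusted p under 0.05 (0.111% of all genes did). At an unadjusted p under 0.05, 14 had a higher log2 fold change in U-937 (4.82% of all genes) and 0 a lower one (4.54%). The difference was positive for 35 of 39, with a median of 0.76, against 0.01 for all genes. Over the 31 genes tested in both lines it was positive for 28, with a median of 0.74 and 11 at an unadjusted p under 0.05. Of all 16283 genes, 50.8% had a positive difference, and no share was counted over all genes tested in both lines. Of these 31, 15 were lower in THP-1 and higher in U-937 by the sign of their log2 fold change, 12 were higher in both and 3 lower in both. With DESeq2, OAS1, XAF1, HERC6, SAMD9L and SAMD9 had an adjusted p under 0.05 with a positive difference, as 0.743% of all genes had. Without THP-1 DMSO replicate 3, 9 genes had an unadjusted p under 0.05 and a positive difference (5.03% of all genes).

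SAMD9 had the smallest p of the list, with a difference of 1.08 (SE 0.27, adjusted p = 0.266). Its FPKM in THP-1 was 5.21, 3.62 and 4.23 with DMSO and 3.19, 4.18 and 2.99 with honokiol, and these groups overlapped (log2 fold change -0.40, SE 0.22, adjusted p = 0.459). OAS1 differed by 1.73 (SE 0.44, adjusted p = 0.266), HERC6 by 1.45 (SE 0.39, adjusted p = 0.301) and SAMD9L by 1.68 (SE 0.46, adjusted p = 0.304). HERC6 was the gene whose groups did not overlap in either line and moved apart, and the share of all genes that did so was not counted. SAMD9L had 2.06, 3.76 and 3.29 with honokiol in THP-1 and 0.74, 0.76 and 0.40 in U-937, where it lay just around the limit. XAF1, EPSTI1 and MX1 were also under the limit in U-937, so their fitted differences rest on a few fragments there. For the IFITM genes the difference was -0.41 (SE 0.48) for IFITM1 and 0.09 (SE 0.35) for IFITM2, and for IRF1 it was 0.25 (SE 0.26).

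The levels of U-937 with honokiol can be set beside those of THP-1. STAT2 had a mean FPKM of 6.51 ± 0.552 in U-937 with honokiol and 10.7 ± 2.28 in THP-1 with DMSO, PARP14 4.60 ± 0.436 and 7.97 ± 1.28, and IFI35 1.997 ± 0.407 and 13.5 ± 3.85 (SD, n = 3). All 3 thus remained lower in U-937 in every library. OAS1 (2.80 ± 0.640 in U-937 with honokiol, 2.0 ± 0.635 in THP-1 with DMSO) and OAS3 (10.0 ± 0.804 and 10.1 ± 3.76) overlapped. These values are a description, with no test.

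Genes upstream of the list were read from sets named by role. Of 21 interferon ligands, 4 were in the table, 0 passed the limit, and the highest value in any library was an FPKM of 0.16 for IFNB1. The receptor chain IFNAR1 had an FPKM of 10.54, 10.41 and 8.80 with DMSO and 12.51, 13.98 and 15.46 with honokiol in U-937 (0.40, SE 0.15, adjusted p = 0.244), and in THP-1 its log2 fold change was -0.34 (SE 0.16). IFNAR2 was also higher with honokiol in U-937, at 7.15, 5.95 and 8.96 with DMSO and 10.96, 11.92 and 20.53 with honokiol (0.89, SE 0.27, adjusted p = 0.181), against 0.31 (SE 0.28) in THP-1. In U-937 both chains were thus without overlap. IFNGR1, a chain of the interferon gamma receptor, had 0.62 in both lines (SE 0.20 in THP-1, 0.21 in U-937), and IFNGR2 had -0.30 (SE 0.17) and -0.43 (SE 0.27).

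STAT3 had a log2 fold change of -0.02 (SE 0.12) in THP-1 and -0.19 (SE 0.12) in U-937. Among the kinases TYK2 had an unadjusted p under 0.05 in THP-1 (0.43, SE 0.16, adjusted p = 0.335). Of 10 brakes on the pathway, all tested in both lines, the phosphatases PTPN2 (-0.44, SE 0.15, adjusted p = 0.211) and PTPN6 (-0.55, SE 0.11, adjusted p = 0.0913) were lower in U-937 at an unadjusted p under 0.05 (8.44% of all genes were), and none was in THP-1 (6.22%).

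Of 16 gamma-type targets, 11 were tested in THP-1, all with a log2 fold change above 0, and 4 were higher at an unadjusted p under 0.05, where 6.84% of all genes were. These were GBP4 (1.07, SE 0.19, adjusted p = 0.117), GBP5 (0.74, SE 0.21, adjusted p = 0.250), the immunoproteasome subunit PSMB9 (0.60, SE 0.23, adjusted p = 0.341) and the tryptophanyl-tRNA synthetase WARS (0.77, SE 0.23, adjusted p = 0.266). In U-937, 3 of 8 were higher (8.25% of all genes), namely WARS (1.02, SE 0.19, adjusted p = 0.0776), PSMB9 (0.81, SE 0.34, adjusted p = 0.283) and PSMB10 (0.55, SE 0.16, adjusted p = 0.174). Of 20 genes of nucleic acid sensing, 15 were tested in each line. MYD88 (-0.90, SE 0.20, adjusted p = 0.168), TLR9 (-0.99, SE 0.33, adjusted p = 0.296) and IRF5 (-0.46, SE 0.19, adjusted p = 0.369) were lower in THP-1 at an unadjusted p under 0.05 (6.22% of all genes). In U-937 TLR9 was (-0.74, SE 0.27, adjusted p = 0.237), as were 8.44% of all genes. None of the upstream or gamma-type genes had an adjusted p under 0.05 in either line.

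The genes also varied together between libraries of one group. In THP-1 with DMSO, replicate 2 was the lowest of its 3 libraries for 26 of the 38 genes tested (68.4%), against 24.3% of all genes, and with honokiol replicate 1 was the lowest for 25 (65.8%, against 38.3%). In U-937, DMSO replicate 3 was the lowest for 18 of 32 (56.2%, against 23.9%) and honokiol replicate 3 for 19 (59.4%, against 36.5%). The median ratio of the highest to the lowest library in THP-1 with DMSO was 1.80 for these genes and 1.44 for all genes. The part of this spread in the comparisons was not tested.

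MX1 shows it in THP-1, with 4.51, 0.84 and 3.39 with DMSO and 0.96, 2.05 and 1.63 with honokiol (-0.99, SE 0.57). OAS2 had 5.54, 0.98 and 3.66 with DMSO and 0.86, 2.51 and 2.11 with honokiol (-0.98, SE 0.62), and EPSTI1 had 1.68, 0.54 and 2.01 with DMSO and 0.39, 1.62 and 0.90 with honokiol (-0.60, SE 0.60). In all 3, DMSO replicate 2 and honokiol replicate 1 were low. The chemokine CXCL10 had the widest range in U-937, with an FPKM of 41.25, 1.55 and 0.00 with DMSO and 0.80, 102.17 and 13.70 with honokiol there (1.27, SE 1.93), and 1.33, 0.56 and 0.73 against 0.34, 3.28 and 1.92 in THP-1 (0.99, SE 0.73). Its groups overlapped in both lines, and no direction can be read.

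**Figure D5:**
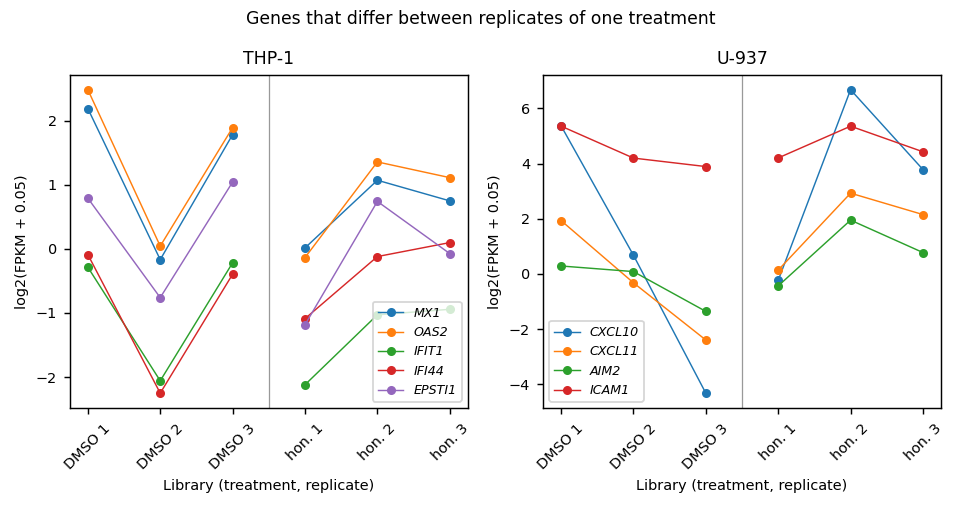
Level as log2(FPKM + 0.05) in each library of THP-1 (left) and U-937 (right), for genes whose replicates differ; lines join the replicates of a treatment for legibility and mark no order. MX1, OAS2, IFIT1, IFI44 and EPSTI1 are low in DMSO replicate 2 and honokiol replicate 1 of THP-1, and CXCL10 in U-937 runs from an FPKM of 0.00 to 102.17.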

How the data were processed

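The 12 libraries of poly(A) RNA were described per the labels, whose processing notes name HISAT2 2.0, StringTie 1.3.0 and Bowtie 0.12.2 and, for these human cells, a mouse build. All 43 genes overlapped their GENCODE 29 gene on GRCh38, on the same strand. The authors deposited FPKM values (per transcript length and depth) and estimated counts per gene, which are whole numbers and not normalized. Strandedness is not given in the sources used here, so reads of antisense partners (RSAD2 and CMPK2, PARP9 and DTX3L, the IFIT genes and LIPA) cannot be told apart. A gene was tested where 3 or more libraries of a fit had an FPKM of 0.5 or above, with edgeR 4.0.16 (quasi-likelihood, TMM) in R 4.3.3, with Benjamini-Hochberg adjustment over all genes tested. Fold changes are on the log2 scale, with SE for standard error. The tests were run on simulated counts first. Alternatives covered DESeq2 1.42.0, limma 3.58.1 on log2 FPKM, other normalizations and filters, counts divided by 4, a replicate block and each library left out. The overlap in CPM and the fits without DMSO replicate 1 of both lines were added after the data were seen. The genes and lists were chosen with earlier results of these data known. Values per library are given for the transcription factors, for genes with an unadjusted p under 0.05 in either line, for the 10 largest differences past the adjusted threshold and for the highest gene of each role. Other genes shown beside them were picked after their values were seen. With 3 libraries against 3, the smallest p of an exact permutation test is 0.1. A gene of the pathway is not reported here.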

Additional observations from a re-analysis of the deposited data

Results flagged for a closer look

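HERC6, a relative of the ISG15 ligase, lay below DMSO in THP-1 and above it in U-937, without overlap in either line. In THP-1 the groups nearly met (0.99 and 0.95), and its unadjusted p was not under 0.05 there. Of all genes tested, 7.62% were lower without overlap in THP-1 and 16.7% higher in U-937. The share of all genes with both was not counted. Its FPKM was 1.24, 1.22 and 0.99 with DMSO and 0.81, 0.79 and 0.95 with honokiol in THP-1, and 0.58, 0.55 and 0.32 against 1.01, 1.18 and 0.85 in U-937. The difference of its log2 fold changes was 1.45 (SE 0.39, adjusted p = 0.301 in edgeR), and over the 24 settings run the adjusted p ran from 0.0267, with DESeq2, to 0.539. Line and dose cannot be told apart here, since the labels do not give the dose of each line.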

How the results depend on the processing

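Single-gene results were followed where the unadjusted p (honokiol) or the adjusted p (baseline) was under 0.05, and none of these turned its direction under the settings run. DESeq2 gave 3 genes past the adjusted threshold in THP-1 (3.46% of all genes), 10 in U-937 (5.76%) and 5 for the difference (1.5%). In THP-1 it gave 5 of 38 lower at an unadjusted p. Of all 14600 genes, 2193 had a p under 0.05 in either direction, and 7.57% of all genes were higher. One fit of all 12 libraries gave 4 past the threshold in U-937 (1.36% of all genes) and 1 higher at an unadjusted p in THP-1 (6.0%). limma-trend on log2 FPKM gave 4 of 38 higher at an unadjusted p in THP-1 with each pseudocount, where 8.4% to 8.65% of all genes were. With a pseudocount of 1 it gave 9 of 39 higher for the difference (5.96% of all genes) and a median of 0.43. For the baseline its median was -0.77 with 0.5 and -0.63 with 1. On TMM-normalized CPM 2 genes were higher without overlap in THP-1 (10.8% of all genes). With each library left out, the unadjusted counts ran from 1 to 5 higher in THP-1 (5 without DMSO replicate 1; 4 without DMSO replicate 3 or honokiol replicate 1; 1 without DMSO replicate 2 or honokiol replicate 2) and from 2 to 8 lower (8 without DMSO replicate 2, 4 without DMSO replicate 3). They ran from 10 to 20 higher and 1 to 3 lower in U-937 (1 without honokiol replicate 3), and from 9 to 19 higher and 0 to 1 lower for the difference (9 without THP-1 DMSO replicate 3, 1 lower without THP-1 DMSO replicate 1). Over these settings 3.21% to 8.27% of all genes were higher in THP-1, 5.38% to 7.75% in U-937 and 3.56% to 5.39% for the difference. The cause was not tested. At baseline IRF1, BST2, IRF9, CMPK2 and IFIT3 lost the adjusted threshold under some settings. Same-numbered libraries correlated between -0.18 and 0.13, so the numbers do not pair them. Some libraries of other numbers correlated higher. DMSO replicate 3 and honokiol replicate 1 of U-937 had 0.261, and DMSO replicate 2 and honokiol replicate 1 of THP-1 had 0.24. In U-937 DMSO replicates 1 and 2 had 0.185 and 0.223 with honokiol replicates 2 and 3, and the remaining pairs of U-937 were negative. In THP-1 DMSO replicates 1 and 3 had 0.161 and 0.128 with honokiol replicates 2 and 3, and the remaining pairs of THP-1 were negative. The positive pairs thus matched each DMSO library with 1 honokiol library in both lines, and the tests here treat the libraries as unpaired. Such pairs were not blocked, and whether they share a batch was not tested. With a replicate block by number, 0 of these genes were past the threshold in either line or for the difference, and 0 of all genes were. At baseline 26 were (47.6% of all genes), and 10 were higher at an unadjusted p for the difference (3.94%). Depth limits the genes under the FPKM limit, which hold a few fragments per library.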

Other observations

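In U-937 cells, the chemokine CXCL11, which shares a receptor with CXCL10, had an FPKM of 3.77, 0.75 and 0.14 with DMSO and 1.05, 7.55 and 4.39 with honokiol. The DNA sensor AIM2 had 1.17, 1.01 and 0.34 with DMSO and 0.69, 3.81 and 1.66 with honokiol, and the adhesion molecule ICAM1 had 40.91, 18.30 and 14.78 with DMSO and 18.36, 40.83 and 21.45 with honokiol. DMSO replicate 1 and honokiol replicate 2 were the highest libraries of their groups for all 3 genes, as for CXCL10. These genes were picked after their values were seen.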
